A study of Mus musculus with 2 samples.

Results

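The Mir322, Mir351 and Mir450 cluster is a run of miRNA genes on the mouse X chromosome, and 6 of its genes, Mir322, Mir503, Mir351, Mir542, Mir450-2 and Mir450-1, are described here out of 1178 annotated miRNA hairpins. The 6 genes were chosen from earlier results of the same libraries, in which reads of this cluster had been seen to differ, so the differences below are descriptions of the values behind that choice and not tests. Reads were taken as belonging to a gene when a sequence of 18 to 30 nt equalled a stretch of its hairpin, directly or after 1 to 3 nt were trimmed from its 3' end. All 6 hairpins were found in the annotation. Reads in both libraries fitted 5 of them, Mir450-1 and Mir450-2 by the same reads, and Mir503 had reads in Ia_high alone.

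The libraries held small RNA of spleen cells of C57BL/6J mice that carried the dendritic cell marker CD11c. Cells were enriched on CD11c beads and sorted by surface Ia, the MHC class II molecule that presents antigen, into CD11c+ Ia low cells (Ia_low) and CD11c+ Ia high cells (Ia_high). Sorted purity was given as above 95%. There was 1 library per population, with no treatment named, and the age, sex and number of mice are not given, so that no spread between animals can be stated and no p-value is given. The Ia_low library held 13739811 reads and the Ia_high library 16388303 reads, of which 26.5% and 45.2% were assigned to miRNA hairpins. Levels are reads per 1000000 such miRNA reads (CPM). A level of 0 reads allowed up to 0.823 CPM in Ia_low and 0.405 CPM in Ia_high, by a limit of 3 reads.

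Both populations were labelled dendritic cells. By distinct mRNA fragments in the same libraries, the dendritic cell transcription factor Zbtb46 had 1 fragment in Ia_low and 56 in Ia_high, and the receptor Flt3 had 6 and 163. Of 7 dendritic cell genes, 5 were at least 2-fold lower in Ia_low and none higher, against 9.56% and 6.36% of all 6935 genes measured. Among the 5 were the MHC class II genes H2-Aa (ratio 0.470), H2-Ab1 (0.485) and H2-Eb1 (0.407). The cells were sorted by surface MHC class II, so the direction of these genes is no separate sign of cell type. Zbtb46 and Flt3, the other genes of the 5, were near the limit of detection in Ia_low. The MHC class II invariant chain gene Cd74 had 441 fragments in Ia_low and 1371 in Ia_high, a ratio of 0.778 that did not reach 2-fold. Fragments of all protein-coding genes numbered 132544 in Ia_low and 320406 in Ia_high, and ratios of mRNA fragments are scaled to these totals. Of 8 genes of Ly6C-low monocytes, 7 were at least 2-fold higher in Ia_low.

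As background, a miRNA gene is transcribed as part of a long primary transcript, cut by Drosha to a hairpin and by Dicer to a short duplex, of which usually 1 strand stays in an Argonaute protein. Genes that lie close together on a strand are often cut from a common primary transcript, after which each miRNA is processed and turned over by itself. The seed, bases 2 to 8 of the mature miRNA, sets most of its pairing with mRNA. miR-322 (the mouse counterpart of human miR-424) and miR-503 belong to the wider miR-15 and miR-16 family, known for holding back cell cycle genes, and the human miR-424 has been studied in monocyte differentiation. miR-351 carries the seed of miR-125, a family known in blood cell formation.

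The mature sequences show which members share a seed with each other or with miRNAs elsewhere. They are given 5' to 3' from RefSeq (GRCm38.p6), with the seed in capitals. All 6 genes had an entry. The sequences of miR-16-5p (chromosomes 3 and 14), miR-125a-5p (chromosome 17) and miR-450b-5p, the cluster's own neighbour, stand beside them for comparison.
miR-322-5p: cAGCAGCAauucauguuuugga
miR-503-5p: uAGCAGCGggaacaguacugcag
miR-16-5p: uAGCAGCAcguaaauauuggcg
miR-351-5p: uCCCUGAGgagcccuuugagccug
miR-125a-5p: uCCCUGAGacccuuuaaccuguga
miR-450a-5p: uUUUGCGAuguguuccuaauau
miR-450b-5p: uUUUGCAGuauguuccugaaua
miR-542-3p: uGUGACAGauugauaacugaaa
miR-322-3p: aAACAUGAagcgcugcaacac
miR-322-5p shares its seed AGCAGCA with miR-16-5p, while miR-503-5p carries AGCAGCG. The seed CCCUGAG is common to miR-351-5p and miR-125a-5p, with different 3' parts. The genes Mir450-1 and Mir450-2 give the same miR-450a-5p, whose seed UUUGCGA is not that of miR-450b-5p.

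The genes lie on the minus strand of chromosome X in GRCm38, within 6196 bases (53048154 to 53054349). Mir322 (ENSMUSG00000065418.1) comes first in the direction of transcription, from 53054255 to 53054349, followed by Mir503 at 53053984 to 53054054 and Mir351 at 53053255 to 53053353. Mir542 lies at 53049403 to 53049487, Mir450-2 at 53048299 to 53048367 and Mir450-1 at 53048154 to 53048244. No GENCODE gene other than the miRNA itself overlaps any of the 6 hairpins, so in that annotation none is exonic or intronic. In GENCODE the lncRNA gene C430049B03Rik ends upstream of Mir322, at 53055046, and the lincRNA gene Gm28730 lies between Mir351 and Mir542. The RefSeq table of the same build differs, as it extends C430049B03Rik over Mir322, Mir503 and Mir351. Neither GENCODE gene had a fragment in either library, where 0 fragments allowed up to 22.6 fragments per 1000000 mRNA fragments in Ia_low and 9.36 in Ia_high.

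miR-351-5p was the most abundant product of the cluster in both populations, with 2148 reads (590 CPM) in Ia_low and 1913 reads (258 CPM) in Ia_high. It was 2.28-fold higher in Ia_low. The exact 95% counting interval was 2.14 to 2.43, and it widened to 1.95 to 2.67 when counts were first divided by 9 in Ia_low and 4 in Ia_high, the numbers of reads that a distinct sequence most often had there. The reads had been amplified by PCR without molecular identifiers, and all intervals and limits here cover counting error only. Among 258 miRNA arms at a mean of 10 CPM or more, miR-351-5p ranked 84 by abundance and 21 by its ratio. No read of its other arm, miR-351-3p, was found in either library.

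miR-322-5p, the second most abundant product, had 888 reads (244 CPM) in Ia_low and 1210 reads (163 CPM) in Ia_high. Its ratio of 1.49 (widened interval 1.18 to 1.88) did not reach 2-fold. The opposite strand, miR-322-3p, had 98 reads (26.9 CPM) in Ia_low and 164 reads (22.2 CPM) in Ia_high, a ratio of 1.21 (0.561 to 2.41). The 5p strand made up 90.1% of the reads of this hairpin in Ia_low and 88.1% in Ia_high, and these shares differ by less than their counting intervals (88.0 to 91.9% and 86.2 to 89.7%). The balance between the strands of Mir322 was therefore nearly the same in both libraries, in a count that includes reads matched after trimming.

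Levels were far lower for the distal genes. miR-542-3p, for which survivin (Birc5) is a reported target, had 113 reads (31.0 CPM) in Ia_low and 143 reads (19.3 CPM) in Ia_high, a ratio of 1.61 (widened interval 0.772 to 3.13). miR-450a-5p had 69 reads (18.9 CPM) in Ia_low and 43 reads (5.81 CPM) in Ia_high. It was 3.26-fold higher in Ia_low (1.11 to 9.06), and the width of this interval shows how little depth stands behind it. Its reads came from 3 distinct sequences that fit both Mir450-1 and Mir450-2, and 0 sequences fitted only 1 of the 2 genes, so their shares cannot be told apart.

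Mir503 was the gap in the cluster, although its hairpin lies between those of Mir322 and Mir351. It had 0 reads in Ia_low and 14 reads in Ia_high, 5 of miR-503-5p and 9 of miR-503-3p. At this depth a difference was not detectable, since 9 reads, a single common sequence in Ia_low, equal 2.47 CPM there and miR-503-3p stood at 1.22 CPM in Ia_high. miR-542-5p had 0 reads in Ia_low and 23 reads (3.11 CPM) in Ia_high. By the limit of 3 reads in Ia_low, it was at least 3.77-fold lower there, and its counting interval (0 to 0.354) excluded 1. Its widened interval reached a ratio of 4.11, so by that interval a difference was not detectable. Mir503 thus stood far below its neighbours on either side.

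**Figure D1:**
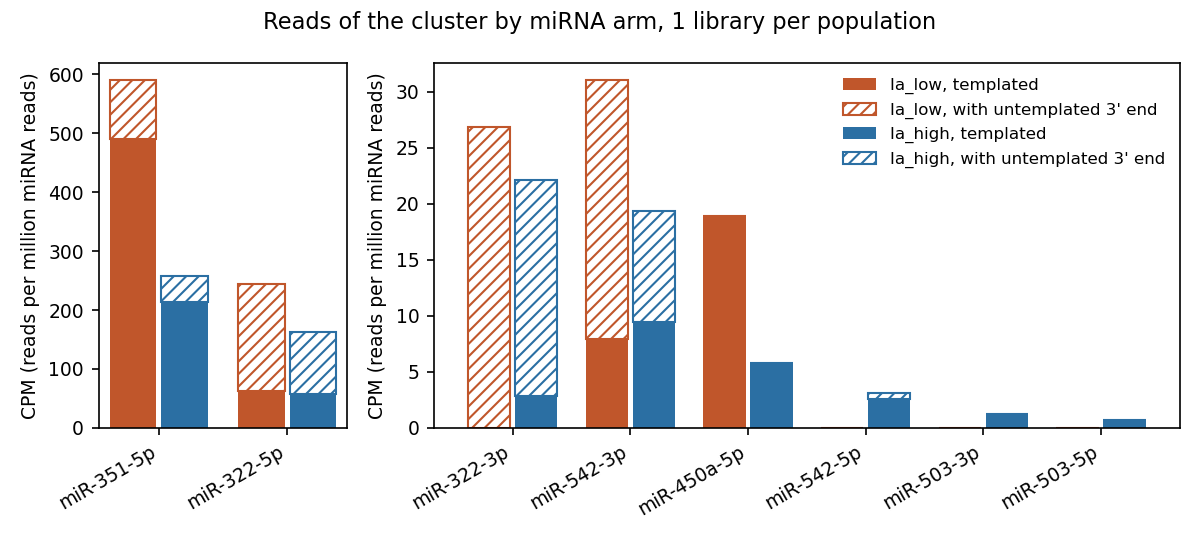
Reads of each arm of the cluster in CPM (reads per 1000000 miRNA reads), in the Ia_low library (orange) left of the Ia_high library (blue), 1 library each, with the 2 abundant arms on their own axis. Filled parts are reads that equal the hairpin and hatched parts reads with an untemplated 3' end: miR-351-5p stands at 590 and 258 CPM and is mostly filled, while miR-322-5p at 244 and 163 CPM is mostly hatched.

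**Figure D2:**
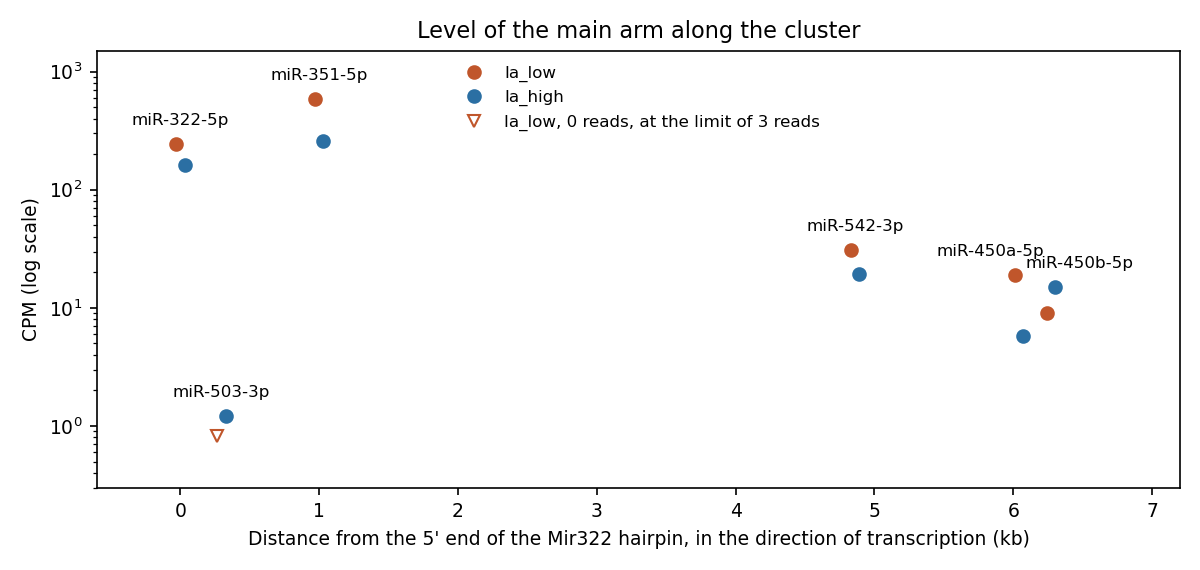
Level of the more abundant arm of each gene (CPM, log axis) against the distance of its hairpin from the 5' end of Mir322, with Ia_low in orange and Ia_high in blue, and miR-450a-5p drawn midway between its 2 genes. Mir503, 295 nt from the start, falls to 1.22 CPM in Ia_high and to no reads in Ia_low (open triangle at the limit of 3 reads), between miR-322-5p and miR-351-5p at over 100 CPM.

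Whether the members moved together was read from 5 arms at a mean of 10 CPM or more, out of 8 with any read. miR-450a-5p passed this minimum through its level in Ia_low, and the 3 arms that did not pass had reads in Ia_high alone, so the counts below describe the arms that passed and not all members. Each of the 5 had a ratio above 1, and 2 of them, miR-351-5p and miR-450a-5p, were at least 2-fold higher in Ia_low, against 10.1% of all 258 arms. None of the 5 was at least 2-fold lower, against 31.4% of all arms, and 41.5% of all arms were called in either direction. The median log2 ratio of the 5 arms was 0.68, beside -0.32 for all 258 arms, 36.0% of which had a ratio above 1. Summed over the cluster, 3316 reads (910 CPM) in Ia_low stood against 3510 reads (474 CPM) in Ia_high, 1.92-fold higher (1.70 to 2.17). Scaling to all reads of a library in place of miRNA reads moved every log2 ratio by -0.77, after which miR-322-5p, miR-322-3p and miR-542-3p had ratios of 0.875, 0.713 and 0.943, and miR-351-5p and miR-450a-5p kept ratios above 1 (1.34 and 1.91). In a bulk library, fewer cells of a type and less RNA per cell cannot be told apart.

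The balance between members does not depend on the scaling between libraries. There were 2.42 reads of miR-351-5p per read of miR-322-5p in Ia_low and 1.58 in Ia_high, and this balance was 1.53-fold higher in Ia_low (widened interval 1.15 to 2.03). It was the only 1 of 10 pairs of arms whose widened interval excluded 1. For miR-351-5p over miR-450a-5p, the balance was 31.1 in Ia_low and 44.5 in Ia_high, with an interval of the difference from 0.248-fold to 1.998-fold. For miR-322-5p over miR-542-3p it was 7.86 in Ia_low and 8.46 in Ia_high, 0.448-fold to 1.94-fold. The 2 abundant miRNAs, from hairpins whose 5' ends lie 996 nt apart, thus differed in their ratio by more than counting error when reads were counted. In distinct sequences the difference was absent, with 24 of miR-351-5p and 9 of miR-322-5p in Ia_low and 41 and 15 in Ia_high, where their log2 ratios were 0.21 and 0.25.

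The 6 members are not the whole of the annotated run. Mir450b, at 53047997 to 53048078, is the next hairpin after Mir450-1, and miR-450b-5p had 33 reads (9.06 CPM) in Ia_low and 112 reads (15.1 CPM) in Ia_high, a ratio of 0.599 (widened interval 0.142 to 1.77). Its ratio lay below 1, with a counting interval (0.393 to 0.890) that excludes 1 and a widened interval that includes 1. The 5 member arms that passed the minimum lay above 1, and the 3 that did not pass had 0 reads in Ia_low. Taking miRNA genes on 1 strand within 10 kb of each other as a cluster, and the more abundant arm of each gene, 30 other clusters had 2 or more measured arms. The range of log2 ratios was 1.13 over the members and 2.45 with Mir450b, beside a median range of 0.70 over the other clusters, 21 of which had a smaller range than the members and 28 a smaller range than the cluster with Mir450b, as the 10 kb rule draws it. With Mir450b there were 5 arms here, against 2 to 6 in the others, most of which had 2, and a range grows with the number of arms. The ends of the wider range are miR-450a-5p and miR-450b-5p, both near the minimum, with means of 12.4 and 12.1 CPM. Their widened intervals (1.11 to 9.06 and 0.142 to 1.77) overlap, and miR-450b-5p passed the minimum through its level in Ia_high. In 2 of the 30 other clusters every arm had a ratio above 1. The median with Mir450b was 0.68, and 1 other cluster, Mirlet7c-2 and Mirlet7b, had a higher one.

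**Figure D3:**
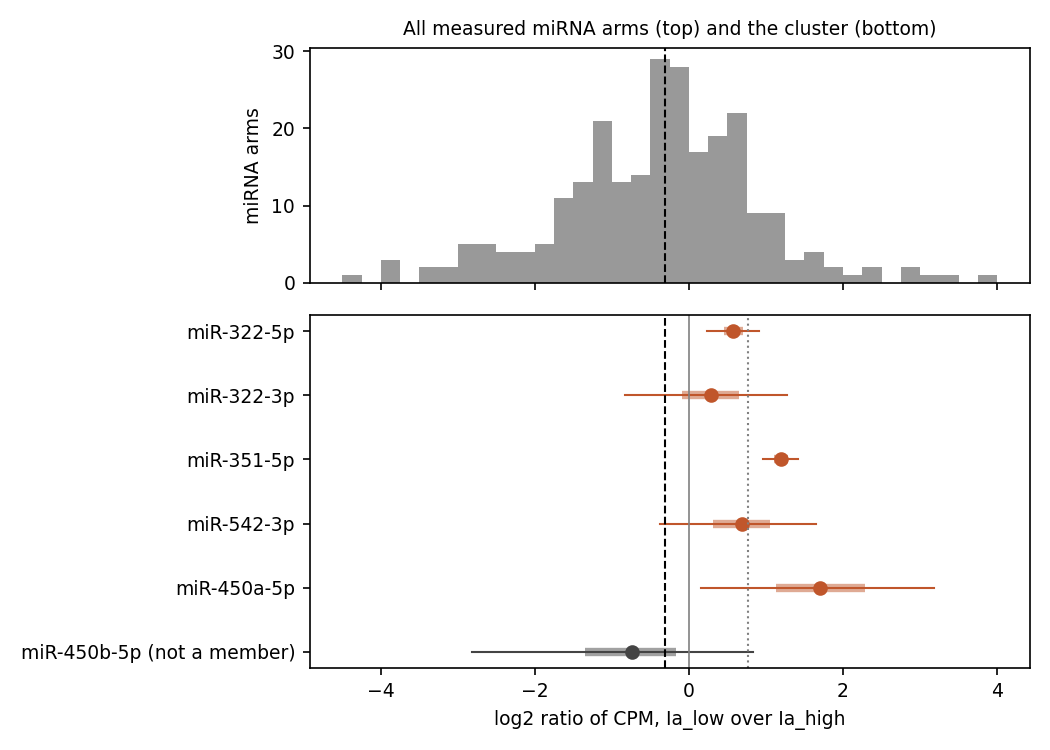
Log2 ratio of CPM, Ia_low over Ia_high, for all measured miRNA arms (histogram of finite values, dashed line at their median of -0.32) and for the arms of the cluster (points, with thick bars for counting intervals and thin bars for widened ones). The 5 member arms lie between 0.28 and 1.71 and miR-450b-5p at -0.74, and the dotted line at 0.77 marks equal levels when libraries are scaled to all reads.

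**Figure D4:**
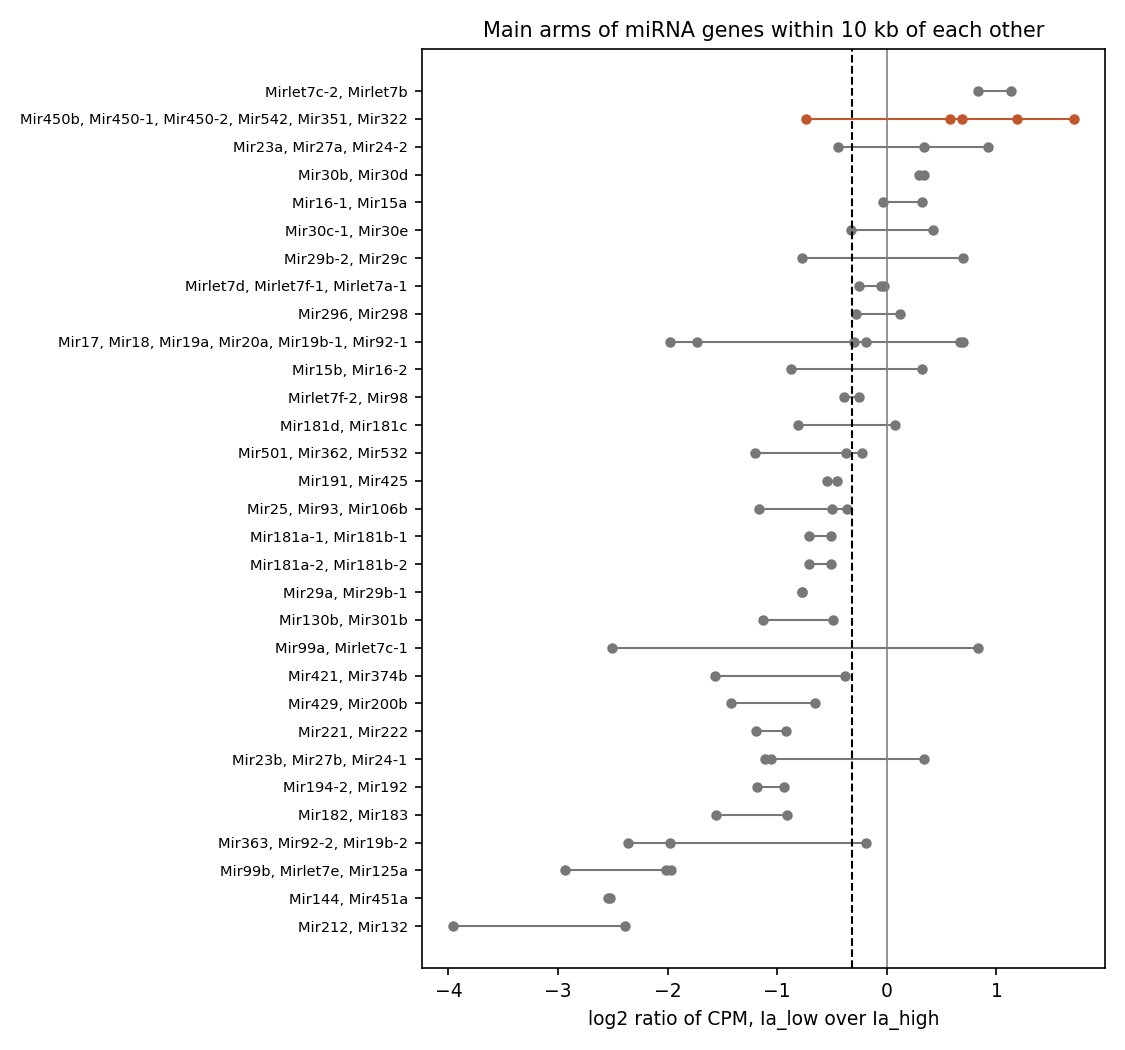
Log2 ratio of CPM, Ia_low over Ia_high, for the more abundant arm of each gene (points) in 31 groups of miRNA genes within 10 kb, ordered by their median, with the group that holds the members in orange and the median of all arms as a dashed line. Its points run from -0.74 (miR-450b-5p) to 1.71 (miR-450a-5p), wider than most groups, which mostly have fewer arms. Some arms appear in several groups because their genes have the same product.

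The members also differed from each other in their 3' ends. An end is called untemplated where it does not match the annotated hairpin, since reads were compared with hairpins and not with the whole genome. In miR-322-5p, a single added U was the most common form, and the tags that carry the finding are given below in DNA letters with untemplated bases in capitals.
miR-322-5p, 22 nt: cagcagcaattcatgttttgga
miR-322-5p, 23 nt: cagcagcaattcatgttttggaT
miR-322-3p, 22 nt: aaacatgaagcgctgcaacacT
miR-542-3p, 24 nt: tgtgacagattgataactgaaagT
miR-351-5p, 23 nt: tccctgaggagccctttgagcct
The 22 nt form of miR-322-5p had 216 reads in Ia_low and 381 in Ia_high, and the 23 nt form with the added U had 574 and 714. All untemplated ends together made up 74.3% of miR-322-5p reads in Ia_low (widened interval 64.5 to 82.6%) and 64.9% in Ia_high (59.2 to 70.3%). Ends of U alone accounted for 69.6% in Ia_low and 61.7% in Ia_high. Of 180 arms with 100 reads or more in each library, 2 had a larger share of such U ends in each library, and the median arm had 9.49% in Ia_low and 6.83% in Ia_high.

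The same kind of end was frequent on miR-542-3p and miR-322-3p. The tag of miR-542-3p with an added U had 68 reads in Ia_low and 67 in Ia_high, and U ends made up 60.2% and 47.6% of its reads. For miR-322-3p, all 98 reads in Ia_low had an added U, as did 119 of 164 reads (72.6%) in Ia_high. miR-351-5p ended mostly as encoded, with untemplated ends on 16.9% of reads in Ia_low and 17.4% in Ia_high, below the median arm (27.5% and 19.7%). No read of miR-450a-5p carried an untemplated end, out of 69 and 43 reads. A terminal U can be added by terminal uridylyltransferases, enzymes that extend RNA 3' ends without a template, which is background and was not measured here.

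The choice of matches changed what was seen of Mir322 and Mir542. With exact matches alone, miR-322-3p had 0 reads in Ia_low and 21 in Ia_high, and miR-322-5p had 228 and 425, a ratio of 1.17 (widened interval 0.724 to 1.81). miR-542-3p had 29 and 70 exact reads, a ratio of 0.900 on the other side of 1 (0.182 to 3.001). miR-351-5p, with few untemplated ends, was 2.45-fold higher in Ia_low by exact matches, and miR-450a-5p 3.49-fold. By exact matches 8.82% of 238 arms were called higher and 41.6% were called in either direction. In exact reads, the balance of miR-351-5p over miR-322-5p was 7.83 in Ia_low and 3.72 in Ia_high.

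**Figure D5:**
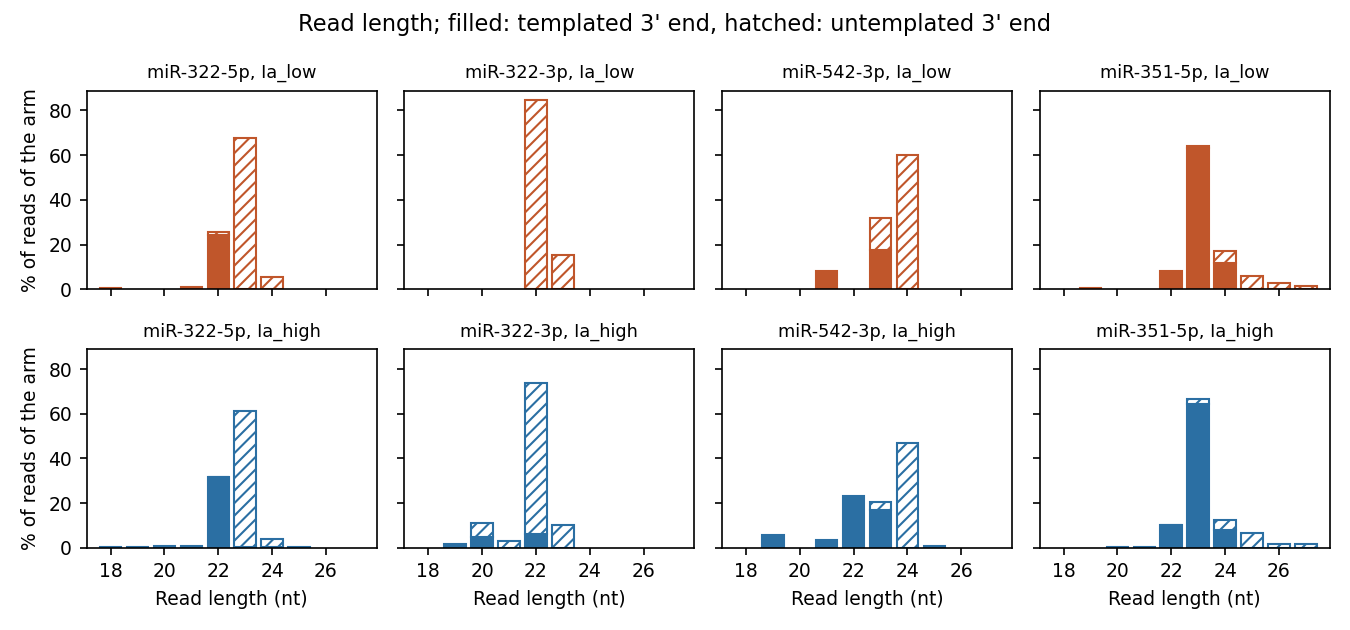
Share of the reads of an arm by read length (nt) for miR-322-5p, miR-322-3p, miR-542-3p and miR-351-5p, in Ia_low (top) and Ia_high (bottom), with templated ends filled and untemplated ends hatched. The hatched 23 nt peak of miR-322-5p holds 67.6% of its reads in Ia_low and 60.7% in Ia_high, while miR-351-5p peaks at 23 nt with a templated end, at 63.2% and 64.3%.

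Starts were precise in the member arms that had enough reads to judge, except miR-322-3p. miR-351-5p began at base 16 of its hairpin in 99.6% of reads in Ia_low and 100% in Ia_high, and miR-322-5p at base 23 in 98.5% and 100%. miR-322-3p was the least precise, with 87.8% of reads at base 61 in Ia_low and 81.7% in Ia_high. A start moved by 1 base changes the seed, and 13 reads of miR-322-5p in Ia_low, all of a single tag, had such a start. Mean read lengths were 22.8 nt in Ia_low and 22.6 nt in Ia_high for miR-322-5p, and 23.3 nt in both for miR-351-5p. Over all miRNAs, reads of 19 to 21 nt were more frequent relative to 22 nt in Ia_high. Reads of 23 to 27 nt were less frequent there on the same measure. Most reads of miR-351-5p had 23 nt or more, so weighting Ia_high reads by length raised its level there. With this weighting miR-351-5p had a log2 ratio of 0.95, which no longer reached 2-fold.

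Set among miRNAs with the same seed, miR-351-5p was the leading one. Reads with the seed CCCUGAG reached 646 CPM in Ia_low and 418 CPM in Ia_high, and miR-351-5p supplied 90.9% of them in Ia_low (widened interval 86.8 to 94.1%) and 61.8% in Ia_high (58.3 to 65.2%). The shares do not depend on the scaling and do not overlap. Its relative miR-125a-5p had 112 reads (30.7 CPM) in Ia_low and 920 reads (124 CPM) in Ia_high, 0.247-fold in Ia_low (0.128 to 0.436), and miR-125b-5p had 33.5 CPM in Ia_low and 37.8 CPM in Ia_high. For the seed AGCAGCA the cluster was a minor source. miR-16-5p led with 15298 CPM in Ia_low and 12211 CPM in Ia_high, and miR-322-5p supplied 1.47% (1.19 to 1.78%) and 1.21% (1.08 to 1.36%) of such reads. miR-15a-5p (ratio 0.974) and miR-15b-5p (0.546) completed the abundant members of that family. For GUGACAG and UUUGCGA, all assigned reads came from miR-542-3p and miR-450a-5p.

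By the distance of log2 CPM over the 2 libraries, the arms nearest to miR-351-5p were miR-23a-3p (469 CPM in Ia_low and 247 CPM in Ia_high), miR-1198-5p (550 and 371 CPM) and the 3p arm of mir-3535 (663 and 384 CPM). Of these, miR-1198-5p also lies on chromosome X. The other 23 measured arms of chromosome X had a median log2 ratio of -0.39, with 0 at least 2-fold higher, 9 at least 2-fold lower and 4 above a ratio of 1. Over all 258 arms the median was -0.32, with 10.1% at least 2-fold higher, 31.4% at least 2-fold lower and 36.0% above a ratio of 1. The labels do not give the sex of the mice. Fragments of Xist, the RNA of the inactive X chromosome, numbered 9 in Ia_low and 67 in Ia_high, and those of the Y-linked Ddx3y 23 and 86. Scaled to all mRNA fragments, the ratio was 0.325 (0.142 to 0.654) for Xist. For Ddx3y it was 0.647, with an interval (0.389 to 1.03) that includes 1.

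Among 12 genes reported as targets of these seeds, 7 had 10 mRNA fragments or more, with a median log2 ratio of 0.03 beside -0.14 for all genes. The G1 cyclin Ccnd1 had 4 fragments in Ia_low and 127 in Ia_high, 0.0761-fold in Ia_low (0.0204 to 0.1998), and Ccnd2 had 7 and 63, 0.269-fold (0.104 to 0.586). Bcl2, which restrains apoptosis, had 17 fragments in Ia_low and 12 in Ia_high, 3.42-fold higher (1.54 to 7.86). Ccnd3 (ratio 1.49), Cdk6 (1.02), Bak1 (1.31) and the phosphatase Cdc25a (0.659) did not reach 2-fold. Ccne1, Wee1, Chek1, E2f3 and Birc5 had too few fragments. The list moved in both directions, with 1 gene higher and 2 lower, against 6.36% and 9.56% of all genes.

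Markers of other cells moved with the comparison. The summed level of 8 Ly6C-low monocyte genes was 12992 per 1000000 fragments in Ia_low and 5053 in Ia_high, and that of 5 cDC1 genes was 1117 and 4226, with Xcr1 and Cadm1 at 0 in Ia_low. Most of the cDC1 sum came from Wdfy4 (732 in Ia_low and 2856 in Ia_high). Of the 5 cDC1 genes, 4 were at least 2-fold lower in Ia_low, beside 9.56% of all genes, and Irf8 (ratio 0.595) was not. The 7 dendritic cell genes summed to 7673 in Ia_low and 14029 in Ia_high. Most of this sum came from MHC class II genes, by whose surface product the cells were sorted. These were Cd74 (3327 in Ia_low and 4279 in Ia_high), H2-Aa (1426 and 3034), H2-Ab1 (1396 and 2878) and H2-Eb1 (875 and 2150). The part of these cell types in the levels of the cluster was not tested. Stromal cell genes left almost no fragments, with 5 of 7 genes at 0 in Ia_low and 7 of 7 at 0 in Ia_high, Col1a1 and Col3a1 among them. Endothelial genes summed to 83.0 per 1000000 fragments in Ia_low and 115 in Ia_high, and 1 of 5, Pecam1, had 10 fragments or more. The 6 stromal and endothelial miRNA genes summed to 923 CPM in Ia_low and 3590 CPM in Ia_high, nearly all of it from miR-143-3p (877 and 3475 CPM). Of their arms, 3 of 3 measured were at least 2-fold lower in Ia_low, beside 31.4% of all arms. The part of these miRNAs in the levels of the cluster was not tested. Erythroid genes had 0 fragments in Ia_low and 7 in Ia_high. Only fragments that fit 1 gene were counted, so any shared by related genes such as Hba-a1 and Hba-a2 were left out. This count therefore cannot show that erythroid RNA was absent.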

How the data were processed

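Per the labels' protocols, a mirVana kit was used for total RNA, and gel-purified molecules below 30 bases received adaptors, went through 12 cycles of PCR and were read on a Solexa machine. The files as deposited list every distinct sequence (tag, 18 to 44 nt) with its raw count, not normalized. How the authors trimmed or filtered reads is not stated in the labels.

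Tags of 18 to 30 nt were matched to 1178 hairpins of GENCODE M21 (GRCm38), directly or with the fewest of up to 3 bases trimmed at the 3' end. Tags fitting several miRNAs were left out (0.270% of miRNA reads in Ia_low and 0.515% in Ia_high), and none of these belonged to the members. Tags were compared with annotated hairpins only, without a genome sequence, so a fit elsewhere in the genome was not checked. Arms were split at the hairpin's middle, and arms with the same main tag were merged. CPM used 3643308 miRNA reads in Ia_low and 7403427 in Ia_high. An arm at a mean of 10 CPM was called at 2-fold with an exact (Clopper-Pearson) 95% interval excluding 1. Balances between arms used the exact conditional odds ratio. mRNA fragments were distinct tags of 20 to 30 nt fitting transcripts of 1 gene, for genes with 10 or more. No test between populations was run. Scripts used Python 3.11.15 and SciPy 1.17.1 and were tested on simulated data. Named miRNAs are all members, the fixed lists and the 3 arms nearest to miR-351-5p. The members and lists were chosen with earlier results of these data known. Alternatives covered the matching, scaling, length, floor, fold and interval.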

Additional observations from a re-analysis of the deposited data

How the results depend on the processing

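No paired analysis was possible because there is 1 library per population. Scaled to all reads, the median log2 ratio of the 5 member arms was -0.0854, the cluster sum stood at 0.17 and 0 member arms reached 2-fold. Over all arms, calls split into 26 higher and 81 lower, into 10 and 138 scaled to all reads and into 42 and 55 when centred on the median of all arms. With exact matches the member median was 0.22 and the sum 1.08. Counting distinct tags gave 0.21 and 0.0377, with 0 of 8 member arms and 18 of 729 arms called. There an arm could pass the minimum on 1 tag, as miR-503-5p did, and miR-450a-5p had 3 tags in each library. With so few tags, these counts of calls are not comparable with those from reads. Centring gave a sum of 1.26, and weighting by length 0.77 with 1 member arm called. Chosen after seeing the data, exact reads plus those with U ends gave a sum of 1.06 and 1 trimmed base at most 1.04. With a floor of 100 CPM, 1 member arm and 36 of 120 arms were called, and with a floor of 1 CPM 3 of 6 member arms (2 higher and miR-542-5p lower) and 284 of 512 arms, against 2 of 5 and 107 of 258. Over 10 alternatives, the ratio was above 1 in 10 for miR-351-5p and miR-450a-5p, 9 for miR-322-5p and 7 each for miR-322-3p and miR-542-3p, and at least 2-fold in 7 for miR-351-5p and 8 for miR-450a-5p. As the cluster was chosen for its difference, these counts are no sign of stability. By exact matches miR-322-3p gave no value, with 0 reads in Ia_low. Depth limits Mir503, Mir542 and Mir450.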
